A study of Homo sapiens with 4 samples.

Results

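The S100 calcium-binding proteins were followed in MCF12A cells, an established non-tumorigenic line of human breast epithelium, after 1 week in ethanol or acetaldehyde. The family was taken as 10 named genes: S100A2, S100A4, S100A6, S100A7, S100A8, S100A9, S100A10, S100A11, S100A14 and S100A16. They are 10 of 18417 genes that a probe set of the array names alone, and each was read by 1 probe set. The rule lists the genes by name and uses no measured value, but the list was chosen with earlier results of these data known.

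Each of 4 monolayer cultures gave RNA for 1 array (Affymetrix Human Gene 1.0 ST), a design that reads a transcript with many short probes spread over the gene. The groups were ethanol (25 mM, 1 week), paired with the unexposed culture called control 1, and acetaldehyde (2.5 mM, 1 week), paired with the unexposed culture called control 2. All cultures shared a medium containing insulin, cholera toxin, hydrocortisone and epidermal growth factor besides 2.5% horse serum. With 1 array per condition, no difference within a pair can be checked against replicates, and precision is limited by how few arrays there are. The model is 1 cell line at 1 dose of each agent, and the doses of the agents differ.

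Values are the deposited intensities on a linear scale, and a difference is the log2 value of an exposed array minus that of the control of the same experiment. A difference of -1 is thus a 2-fold lower signal. The median intensity over all probe sets was 90.2 with ethanol, 92.2 in control 1, 113.0 with acetaldehyde and 113.8 in control 2. The distributions point to a separate normalization of each pair, which the labels do not state. Levels set across experiments, including control 2 against control 1, may thus hold that step as well as the cultures. A gene was kept if it reached an intensity of 155.0, the median of gene-naming values, on at least 1 array, which left 10373 genes. Of the 10 members 9 were kept, each of them above that intensity on every array, and S100A4 was below that level on all 4 arrays. Of the breast epithelial markers listed, all 6 with a probe set of their own were kept, with intensities of 370.2 to 12169, whereas 0 of 4 endothelial markers and 2 of 6 fibroblast markers were. S100A8 and S100A9 are also abundant in neutrophils and monocytes, so myeloid markers were read beside them. Of 6 measured myeloid markers only CD14 reached the filter, at 287.2 with ethanol against 189.1 in control 1, and at 183.2 with acetaldehyde against 279.2 in control 2. The leukocyte marker PTPRC lay between 10.3 and 15.9 on the 4 arrays. The summed myeloid signal was 574 with ethanol and 454.9 in control 1, and 457.8 with acetaldehyde and 575.7 in control 2. The part of CD14-positive cells in the results below was not tested.

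S100 proteins are small calcium sensors of vertebrates, built around a pair of EF-hand loops. Most pair into dimers, open a binding groove when calcium is bound, and then attach to target proteins such as annexins, cytoskeletal proteins and p53. Several are secreted or released from damaged cells, where S100A7 (psoriasin) and the S100A8/S100A9 heterodimer (calprotectin) withhold zinc and manganese from microbes and act as danger signals. In stratified epithelia S100A7, S100A8 and S100A9 are low in resting cells and strongly induced in inflamed, wounded or psoriatic tissue. Most of the family lies in 1 cluster on chromosome 1, together with the genes of the cornified envelope.

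The largest differences in both pairs were those of the secreted antimicrobial members. With ethanol S100A9 and S100A8 were 3.90-fold and 3.52-fold below control 1, and with acetaldehyde S100A7 was 2.04-fold and S100A9 1.91-fold below control 2. The epithelial member S100A14 was 1.96-fold below control 1 with ethanol and 1.04-fold below control 2 with acetaldehyde. The other kept members, S100A2, S100A6, S100A10, S100A11 and S100A16, stayed within 0.21 log2 units of their own control with both agents.

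**Figure D1:**
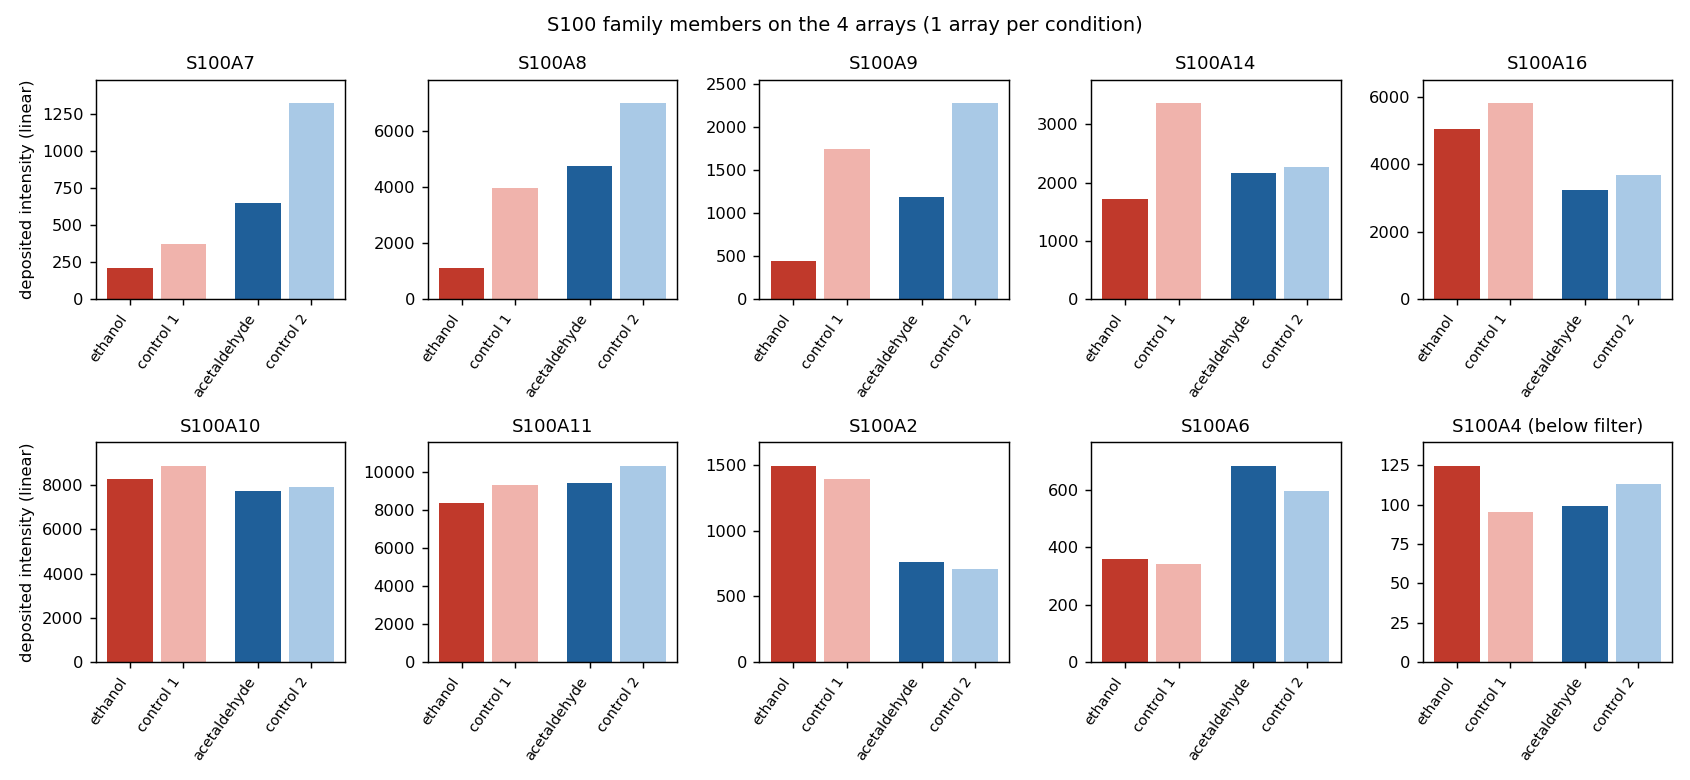
Deposited intensity (linear, each panel with its own axis from 0) of the 10 S100 members; bars are single arrays, in the order ethanol, control 1, acetaldehyde, control 2. S100A8 and S100A9 are lowest in the ethanol bar and stand below their own control in both pairs, while S100A10 and S100A11 are nearly level across the 4 bars.

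S100A9, the calprotectin subunit with the longer tail, read 448.3 with ethanol against 1747 in control 1, and 1188 with acetaldehyde against 2274 in control 2. Both exposed arrays were below both controls. The log2 difference was -1.96 with ethanol and -0.94 with acetaldehyde, and control 2 was 0.38 above control 1.

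S100A8, its partner in the heterodimer, read 1129 with ethanol against 3973 in control 1, and 4748 with acetaldehyde against 6998 in control 2. The ethanol array was below both controls, whereas the acetaldehyde array lay between them. The differences were -1.82 and -0.56, and control 2 was 0.82 above control 1. Over the 3 differences S100A8 and S100A9 were 0.60 apart (Euclidean distance, log2 units), against 1.51 between S100A8 and S100A7 and 1.86 between S100A9 and S100A7.

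S100A7, first described as a protein of psoriatic skin, read 212.0 with ethanol against 370.7 in control 1, and 648.8 with acetaldehyde against 1326 in control 2. The matched differences were -0.81 with ethanol and -1.03 with acetaldehyde. Control 2 was 3.58-fold above control 1, a larger gap than either matched one. The acetaldehyde array, though below its own control, was therefore 0.81 above control 1. S100A7A is a near-identical neighbour of S100A7, and signal that the probes of one gene take from the other cannot be told apart here.

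S100A14, a member found mainly in epithelial cells, read 1714 with ethanol against 3359 in control 1, and 2166 with acetaldehyde against 2263 in control 2. It was the only kept member besides S100A8 and S100A9 whose ethanol difference (-0.97) was clearly larger than the gap between the controls (-0.57). Its acetaldehyde difference was -0.06. With all 4 arrays normalized together the ethanol difference was -1.06, which takes it past 2-fold, and against control 2 it was -0.40, short of 1.5-fold. S100A16, a widely expressed relative encoded next to it, had 5044 with ethanol against 5812 in control 1, and 3245 with acetaldehyde against 3694 in control 2. Its differences of -0.20 and -0.19 were of the same sign and far smaller than the -0.65 between the controls.

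With the gap between controls included, the annexin partners were the steadiest members. On the matched differences alone, S100A2 was nearer its own control than S100A11 in both pairs. S100A10 holds annexin A2 at the plasma membrane and has lost calcium binding. Its intensity was 8264 with ethanol against 8871 in control 1, and 7738 with acetaldehyde against 7898 in control 2. S100A11, which binds annexin A1 and takes part in membrane repair and keratinocyte growth control, had 8343 with ethanol against 9283 in control 1, and 9398 with acetaldehyde against 10302 in control 2. The 4 matched differences of this pair of genes ran from -0.15 to -0.03, and their controls differed by -0.17 for S100A10 and 0.15 for S100A11.

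S100A2, a nuclear S100 protein of basal epithelial cells, read 1493 with ethanol against 1395 in control 1, and 765 with acetaldehyde against 706.5 in control 2. The matched differences were 0.10 and 0.11, while control 2 was 1.97-fold below control 1. S100A6 (calcyclin), a protein of proliferating cells, had 359.6 with ethanol against 341.5 in control 1, and 683.2 with acetaldehyde against 595 in control 2. Its matched differences were 0.07 and 0.20, and control 2 was 1.74-fold above control 1. For both genes the gap between the controls was larger than either matched difference. S100A4, known from motile and mesenchymal cells, had 124.5 with ethanol against 95.5 in control 1, and 98.8 with acetaldehyde against 113.1 in control 2. These values all lie below the filter, so its differences of 0.38 and -0.19 are the least certain of the family.

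The family was then counted against all genes kept. With ethanol 2 of 9 kept members (S100A8 and S100A9) were lower by 2-fold or more, against 2.11% of all genes, and 0 of 9 were at least 2-fold higher, against 1.17%. At 1.5-fold, S100A7 and S100A14 joined them, which made 4 of 9 against 4.22%. With acetaldehyde 1 of 9 (S100A7) was at least 2-fold lower, against 0.212%, and 2 of 9 (S100A7 and S100A9) at least 1.5-fold lower, against 0.974%. The median difference of the 9 members was -0.20 with ethanol, beside 0.05 over all genes kept, and -0.13 with acetaldehyde, beside 0.00. The matched differences share no array, and 7 of 9 members were lower in both, against 26.9% of all genes, while S100A2 and S100A6 were higher in both. Of the 7, S100A10, S100A11 and S100A16 were within 0.21 log2 units of their own control in both. S100A7 and S100A9 were at least 1.5-fold lower with both agents, as were 0.569% of all genes. Epithelial markers moved alongside, and their part in these differences was not tested. The basal keratin KRT14 was at -0.66 with ethanol and -0.95 with acetaldehyde, while the luminal KRT8, KRT18 and EPCAM were at 0.75, 0.63 and 0.70 with ethanol and at 0.22, 0.12 and 0.35 with acetaldehyde. The basal keratin KRT5 was at -0.20 and -0.23, and the cadherin CDH1 at -0.32 and -0.42. Control 2 was below control 1 for KRT14 (-1.68), CDH1 (-1.33) and EPCAM (-1.21). The summed signal of the 6 markers was 25636 with ethanol and 25364 in control 1, and 17747 with acetaldehyde and 19865 in control 2. In bulk RNA, fewer cells expressing a gene and less RNA per expressing cell cannot be told apart.

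**Figure D2:**
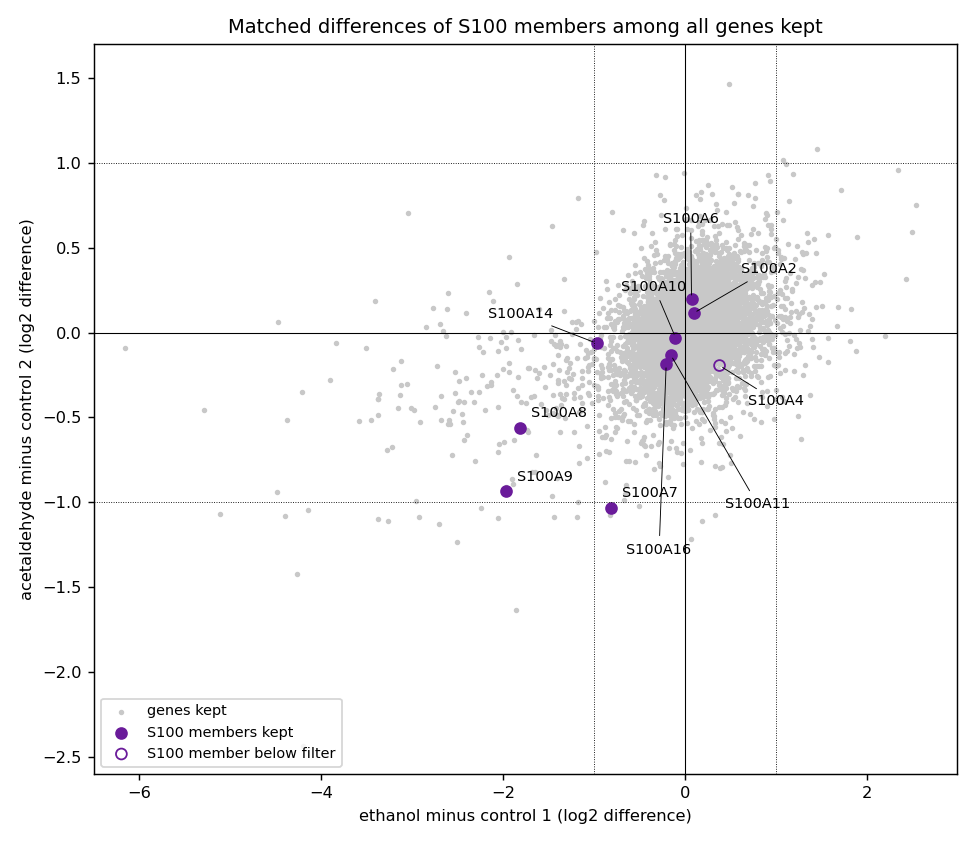
Log2 difference of ethanol minus control 1 (x axis) and of acetaldehyde minus control 2 (y axis) for 10373 genes kept (grey) and the S100 members (purple; open circle for S100A4, below the filter); dotted lines mark 2-fold. S100A8, S100A9 and S100A7 lie in the lower left, S100A14 is low on the x axis alone, and the other members lie in the central cloud.

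The gap between the unexposed cultures is the only measure of spread without an agent, and it may include a separate normalization of each pair. Control 2 was at least 2-fold above control 1 for 1 of 9 members (S100A7), against 4.25% of all genes, and at least 2-fold below it for 0 of 9, against 4.85%. At 1.5-fold, 3 were higher in control 2 (S100A6, S100A7 and S100A8), against 14.9%, and 2 were lower (S100A2 and S100A16), against 12.9%. The ethanol difference was larger than this gap for 4 of 9 members (S100A8, S100A9, S100A14 and, by a margin under 0.01, S100A11), against 32.1% of all genes. The acetaldehyde difference was larger for 1 of 9 (S100A9), against 20.7%. The ethanol array was below both controls for 5 of 9 members (S100A7, S100A8, S100A9, S100A11 and S100A14), against 28.1%. The acetaldehyde array was below both for 4 of 9 (S100A9, S100A10, S100A14 and S100A16), against 24.9%, and S100A9 was the only one of these more than 1.2-fold below its own control.

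Both pairs were also fitted together with limma, either exposure against its own control with the experiment as a block. Its 1 residual degree of freedom measures how far the responses differ, and it handles the agents as replicates of one treatment, which they are not. None of the 9 members passed a Benjamini-Hochberg adjusted p of 0.05, and neither did any of the 10373 genes (0%), of which 458 were lower and 566 higher at an unadjusted p under 0.05. That balance turned to 528 lower and 444 higher with joint quantile normalization, and it was 55 lower and 30 higher without the block. The members with the largest fitted differences were S100A9 at -1.45 ± 0.26 (SE), S100A8 at -1.19 ± 0.31 and S100A7 at -0.92 ± 0.12, lower in 2 of 2 pairs each, with a limma adjusted p of 0.49 for all 3. S100A14 was at -0.52 ± 0.24, with a limma adjusted p of 0.50.

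The agents were set side by side at their own doses, with no test. The ethanol difference was at least 2-fold below the acetaldehyde difference for S100A8 (-1.26) and S100A9 (-1.03), 2 of 9 members, against 1.77% of all genes. S100A14 followed at -0.91. For S100A7 the order was the other way by 0.23, and for the 5 other kept members the responses were within 0.13 of each other.

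In the order of protein-coding S100 genes along chromosome 1, S100A9, S100A8 and S100A7 stand close together, while S100A14, also lower with ethanol, lies further along. The cluster reads S100A10, S100A11, S100A9, S100A12, S100A8, S100A7A, S100A7, S100A6, S100A5, S100A4, S100A3, S100A2, S100A16, S100A14, S100A13 and S100A1. Between S100A9 and S100A7 lie S100A12 and S100A7A besides S100A8, and the pseudogene S100A7L2, below the filter on all arrays, is not counted in this order. S100A12, a further antimicrobial S100 protein, was at 23.1 with ethanol against 78.8 in control 1, and at 119 with acetaldehyde against 128 in control 2, all below the filter. S100A7A was at 38.8 with ethanol against 39.9 in control 1, and at 155.9 with acetaldehyde against 255.2 in control 2, and was kept only through the acetaldehyde experiment. From S100A6 to S100A1, S100A14 was the only gene more than 0.39 from its own control with either agent. This grouping by position was seen in the data and has no test.

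**Figure D3:**
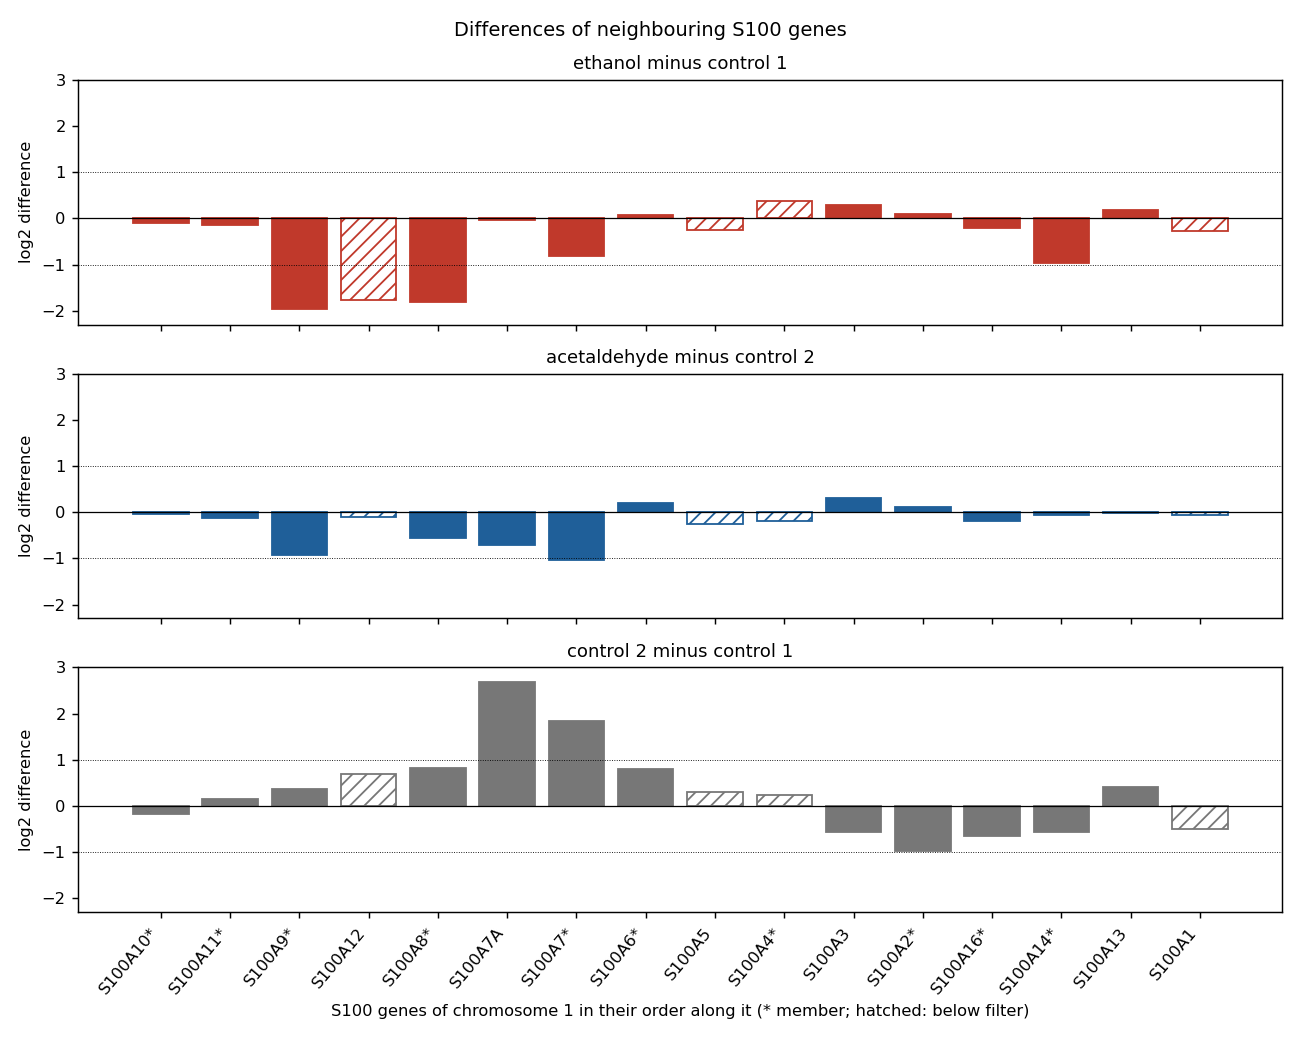
Log2 difference (y axis) of ethanol minus control 1 (top), acetaldehyde minus control 2 (middle) and control 2 minus control 1 (bottom) for the 16 protein-coding S100A genes of chromosome 1 in their order along it; bars are single differences, hatched where the gene is below the filter. The stretch from S100A9 to S100A7 holds the lowest bars in the upper panels and the highest in the bottom panel.

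The promoters of S100A7, S100A8 and S100A9 are shown because these members of one stretch were each lower with both agents, and that of S100A14 because it was lower with ethanol from another place in the cluster. Each window runs from 250 bases before to 50 after an annotated start (RefSeq, GRCh38.p14), read 5′ to 3′ on the strand of the gene, and capitals mark TATAAA. The windows are chr1:153460602-153460901 (minus strand) for S100A7, chr1:153391024-153391323 (minus strand) for S100A8, chr1:153357604-153357903 (plus strand) for S100A9 and chr1:153616276-153616575 (minus strand) for S100A14. For S100A8, which has 3 annotated starts, the window with TATAAA at the usual distance was chosen after the matches were seen.
S100A7: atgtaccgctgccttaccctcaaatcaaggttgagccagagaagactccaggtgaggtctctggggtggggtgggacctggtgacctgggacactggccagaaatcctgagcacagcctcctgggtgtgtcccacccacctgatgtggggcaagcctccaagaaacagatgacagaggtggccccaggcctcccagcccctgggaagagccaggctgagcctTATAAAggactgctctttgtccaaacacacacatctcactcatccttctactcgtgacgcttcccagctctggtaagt
S100A8: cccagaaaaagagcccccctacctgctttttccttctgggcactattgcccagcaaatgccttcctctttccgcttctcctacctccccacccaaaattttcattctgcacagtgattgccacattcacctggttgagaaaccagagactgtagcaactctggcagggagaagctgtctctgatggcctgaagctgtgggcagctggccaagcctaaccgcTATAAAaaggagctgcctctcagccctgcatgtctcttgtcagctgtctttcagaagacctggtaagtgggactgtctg
S100A9: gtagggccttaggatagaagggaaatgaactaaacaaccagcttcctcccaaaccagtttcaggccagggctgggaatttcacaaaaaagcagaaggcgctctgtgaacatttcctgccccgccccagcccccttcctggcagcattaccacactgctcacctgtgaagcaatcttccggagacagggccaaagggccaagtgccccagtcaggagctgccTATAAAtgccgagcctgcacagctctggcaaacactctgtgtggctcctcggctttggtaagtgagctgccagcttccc
S100A14: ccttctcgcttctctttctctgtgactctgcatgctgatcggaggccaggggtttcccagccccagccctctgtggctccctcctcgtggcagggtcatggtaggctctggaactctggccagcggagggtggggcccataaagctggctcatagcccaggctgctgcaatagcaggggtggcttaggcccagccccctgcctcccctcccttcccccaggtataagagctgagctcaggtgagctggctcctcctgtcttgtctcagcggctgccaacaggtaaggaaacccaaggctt

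TATAAA, the core of the TATA box that positions transcription in many inducible genes, begins 28 bases before the start in S100A7 and 29 bases before it in S100A8 and S100A9. It was also found 31 bases before the start of S100A4, so 4 of 10 members hold it. By window, 5 of the 14 member windows hold it on either strand, beside 11.5% of 35116 promoter windows of the same length. The windows of S100A8 overlap, and the same TATAAA was counted in those where it lies 29 and 126 bases before the start. The 5 are therefore not separate sites. Outside the members TATAAA lies at 28 bases in S100A7A and S100P, at 29 in S100A13, at 32 in S100G, at 11 in S100Z and at 8 in S100A12. S100A13 was kept and not lower with ethanol (0.18), so the motif was not confined to the genes that were lower. S100A14 has no exact TATAAA in its window, although tataag stands there at a similar distance before the start. Variants of the motif were not searched. Other motifs were searched on both strands, with overlaps allowed. The AP-1 motif TGANTCA was present in S100A2 alone (7.71% of all windows), and the C/EBP motif TTNNGNAA in 7 of 14 member windows, those of S100A6, S100A8, S100A9, S100A11 and S100A16 (36.8%). The overlapping S100A8 windows again share a site, so these 7 are not separate sites either. The grainyhead-like motif AACCNGTT was present in S100A9 alone (1.73%), while the STAT motif TTCNNNGAA (7.66%) and an NF-kB motif (0.558%) were in no member's window. A match is a description of the letters and not a bound site.

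Of 11 other S100 genes listed, 4 were kept. S100P, a placental and tumour-associated member encoded on another chromosome, was lower in both pairs, at 678.4 with ethanol against 2023 in control 1, and at 773.5 with acetaldehyde against 1035 in control 2. Its ethanol difference of -1.58 was the one past 2-fold among the 4. S100A3, a protein of hair cuticle, was higher in both pairs, at 0.29 and 0.31, S100A13, which helps export growth factors, was at 0.18 and -0.03, and S100A7A was at -0.04 and -0.71. The remaining S100A1, S100A5, S100A7L2, S100A12, S100B, S100G and S100Z were below the filter on all arrays.

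Among 16 listed receptors and binding partners, 11 were kept, and 0 of these were past 2-fold with either agent. Over all genes kept, 2.11% were at least 2-fold lower and 1.17% higher with ethanol. With acetaldehyde 22 of 10373 were lower and 3 higher. A count of 0 of 11 is near these shares, and nothing is drawn from it. Their median difference was 0.49 with ethanol and 0.09 with acetaldehyde. The plasminogen system, which S100A10 helps to assemble at the cell surface, gave 3 of the 4 largest values. The urokinase receptor PLAUR was at 0.98 with ethanol and 0.36 with acetaldehyde, urokinase PLAU at 0.77 and 0.41, and the tissue activator PLAT at 0.55 and -0.38. Control 2 was below control 1 by more than either matched difference for PLAUR (-1.52) and PLAU (-1.25). Annexin ANXA6 was at 0.78 and -0.07, but 2.22 higher in control 2 than in control 1. Some partners are named for their pairing with members. The S100A10 partner ANXA2 was at -0.08 and -0.11 and the S100A11 partner ANXA1 at -0.09 and 0.09. The S100A6 binder CACYBP was at 0.51 and 0.23. The receptors AGER (RAGE) and TLR4, through which extracellular S100A8 and S100A9 signal, were below the filter on all arrays, whereas BSG (basigin), another receptor for them, was kept, with differences of 0.06 and -0.08.

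Of 11 genes listed for the cytokine pathways that induce S100A7, S100A8 and S100A9 in epithelium, 9 were kept, with a median difference of -0.74 with ethanol and -0.23 with acetaldehyde. The farthest, IL1RN at -2.70 and -1.13, encodes the antagonist of the interleukin-1 receptor and so blocks rather than induces. It was 12.3-fold lower in control 2 than in control 1, a wider gap than either matched one. The cytokine IL1B was at -1.46 with ethanol and 0.63 with acetaldehyde, beside -1.86 between the controls, IL6 at 1.23 and 0.51, and the interleukin-22 receptor chain IL22RA1 at -0.95 and -0.48. Past 2-fold with ethanol on the lower side were 2 of the 9 genes, against 2.11% of all genes. On the higher side was 1, IL6, against 1.17%. IL6 passed the filter only through the exposed arrays, at 156.7 with ethanol and 170 with acetaldehyde. Its intensity was 66.6 in control 1 and 119.4 in control 2. The filter thus favours a higher exposed value for IL6, and nothing is drawn from that count. IL22RA1 passed the filter only through the controls.

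The S100-fused proteins carry an S100 domain at the head of a long repeat and belong to the cornified layer. FLG (filaggrin) and CRNN (cornulin), the 2 that were kept of 6 measured, were lower with ethanol by -2.85 and -2.13, and at 0.04 and -0.31 with acetaldehyde. Both were kept only through control 1, and control 2 minus control 1 was -2.34 for FLG and -1.37 for CRNN. Of 5 calmodulin genes listed, only CALML3 and CALML5 had a probe set of their own, and both were below the filter.

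The cornified envelope genes, most of them neighbours on the chromosome, are given for comparison. For the 13 cornified envelope genes kept, the median difference was -2.96 with ethanol and -0.44 with acetaldehyde. With ethanol 13 of 13 were past 2-fold on the lower side, against 2.11% of all genes. IVL and SPRR3 passed the filter only through the controls, and SPRR2A only through control 1. For these genes the filter favours a lower exposed value. Control 2 was below control 1 for 12 of the 13 envelope genes, with a median of -2.29, against 4716 of all 10373 genes kept. For SPRR2A the filter favours a lower control 2 as well. S100A7, S100A8 and S100A9 were all higher in control 2. Of the 9 S100 members 5 were higher there (S100A6, S100A7, S100A8, S100A9 and S100A11) and 4 lower (S100A2, S100A10, S100A14 and S100A16). Among all 10373 genes kept, 5657 were higher there. The median of control 2 minus control 1 over the 9 S100 members was 0.15. These medians have no test.

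**Figure D4:**
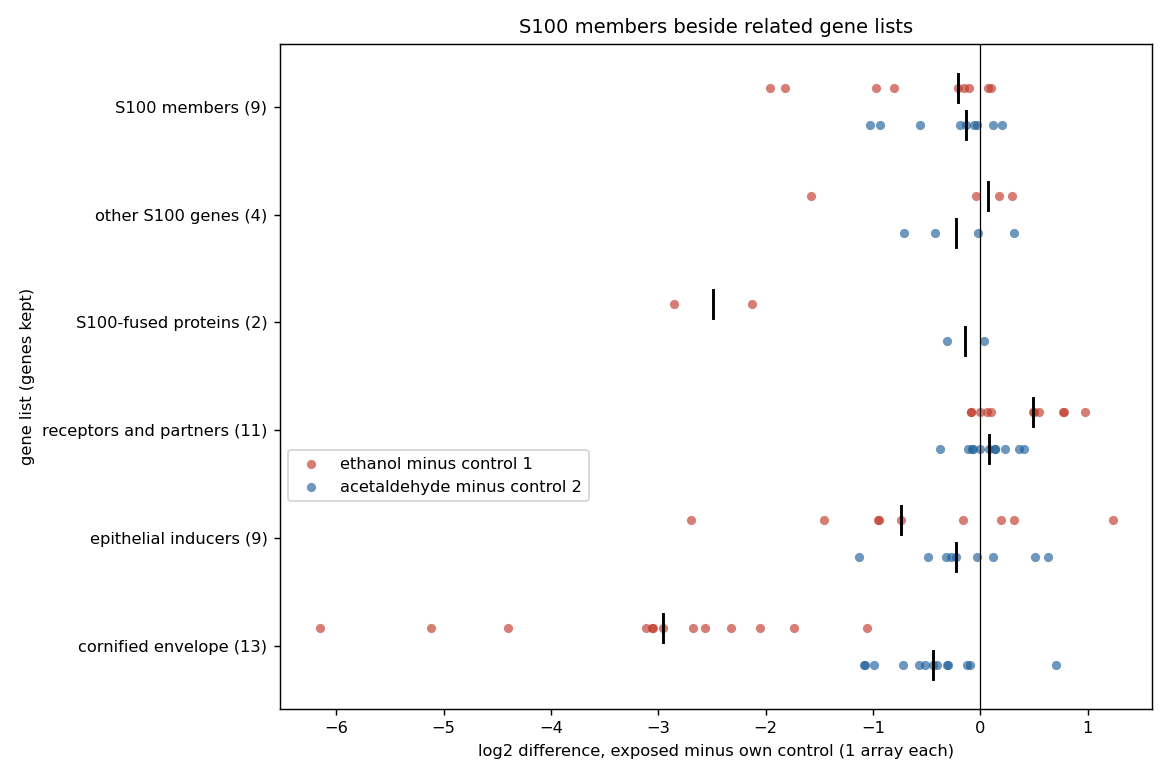
Log2 difference from the own control (x axis) of each gene kept, by list (y axis, with the number of genes), for ethanol minus control 1 (red) and acetaldehyde minus control 2 (blue); black ticks are medians. Most S100 members lie near 0 with a tail to the left, whereas the cornified envelope genes with ethanol are all left of -1.

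The genes most like S100A9 and S100A7 over the 3 differences were found by Euclidean distance among the genes kept outside the 10 members, from values of 4 arrays. The member S100A8 lay 0.60 from S100A9, nearer than all but PROM2 and RAPGEFL1 of these genes. Nearest to S100A9 among the other genes were PROM2, a protein of membrane protrusions (distance 0.54), RAPGEFL1 (0.59), the cortisol-inactivating enzyme HSD11B2 (0.71), the receptor NOTCH3 (0.73) and the homeobox gene DLX5 (0.75). PROM2 was at 207.5 with ethanol against 564.4 in control 1, and at 334.8 with acetaldehyde against 711.7 in control 2. Nearest to S100A7 among the other genes were the carboxylesterase CES1 (0.34), the sphingosine phosphate phosphatase SGPP2 (0.52), the suprabasal keratin KRT1 (0.55), the histone gene H2BC21 (0.71) and the transcriptional repressor BCL6 (0.71). CES1 was at 109.6 with ethanol against 155.4 in control 1, and at 244 with acetaldehyde against 496.2 in control 2. KRT1 passed the filter only through control 2 (212.7), and DLX5 only through the controls (301.4 in control 1 and 237.5 in control 2). Their differences thus rest in part on values below the filter.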

How the data were processed

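The deposited values are linear intensities (3.13 to 22858), 1 for each probe set on each array. The submitters' processing notes name RMA, and the program that ran it is not given here. Value distributions differed by 0.040 (ethanol pair), 0.027 (acetaldehyde pair) and 0.270 (between controls) on the log2 scale, and 77, 38 and 0 probe sets had identical values in these pairs. Of 33297 probe sets the platform annotation gave 1 symbol to 19460, several to 1754 and none to 12083; several and none were left out, and the brightest probe set stood for a gene. Arrays hold no read depth. The members, lists and tests were chosen with earlier results of these data known. All members are described; other lists are named by their 4 largest differences, the other S100 genes in full, and 5 genes by likeness; exceptions are stated. Python 3.11.15, R 4.3.3, limma 3.58.1 (lmFit, eBayes; tested on simulated data) and matplotlib 3.10.9 were used. The labels say no more than that the cultures are separate, and p-values therefore rest on the spread among these arrays alone, which may be technical. Alternatives were joint quantile normalization, the mean of probe sets, log2(intensity + 16), no filter, 1.5-fold, the other control and no block.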

Additional observations from a re-analysis of the deposited data

Results flagged for a closer look

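S100A4 was the only member with opposite signs in the 2 experiments, at 0.38 with ethanol and -0.19 with acetaldehyde, a gap of 0.58 log2 units. That difference was not tested, and all its intensities lay below the filter.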

How the results depend on the processing

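The number of members at least 2-fold lower with ethanol was 2, and it was 3 with joint quantile normalization (S100A14 added) or against control 2 (S100A7 added), and 4 at 1.5-fold; against control 2, 1 member (S100A2) was at least 2-fold higher. With acetaldehyde the number lower was 1, which became 2 at 1.5-fold and 0 against control 1, where S100A7 turned to 0.81 and 1 member (S100A6) was at least 2-fold higher. Between controls, 1.5-fold gave 2 lower and 3 higher members in control 2, and joint quantile normalization left the 2-fold counts unchanged. The number of members with ethanol at least 2-fold below acetaldehyde was 1, not 2, with log2(intensity + 16), S100A9 being just short. Every member has 1 probe set, so averaging probe sets changed no member's value. The limma fit passed 0 members with the experiment as a block, with no replicate block and under each other alternative run. Leaving out an array was not run, since each condition has 1. No paired analysis by replicate number was possible because the labels give each condition 1 array. Signal near background limits S100A4, S100A7A and S100A12 most.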
